A study of Mus musculus with 7 samples.

Results

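The chemokines and chemokine receptors of the mouse intestine were followed over 7 one-colour Affymetrix arrays. The members were all genes whose symbol follows the Ccl, Ccr, Cxcl or Cxcr pattern with a number, together with Cx3cl1, Cx3cr1, Xcl1 and Xcr1. Among probe sets annotated with a single symbol, 51 such genes were measured out of 19938 genes in all, and they comprise 34 ligands and 17 receptors. Each gene was read through the probe set with the highest mean over the 7 arrays. The groups were Atg4b knockout (KO) colon after dextran sulfate sodium (2 arrays), wild-type (WT) colon after the same treatment (1 array), untreated KO ileum, untreated WT ileum, untreated KO colon and untreated WT colon (1 array each). Every animal was 3 months old and of a mixed C57Bl6/129Sv strain. Dextran sulfate sodium (DSS) injures the colonic epithelium when given in drinking water, here for 7 days followed by 3 days of plain water. Atg4b encodes a protease that processes the LC3 and GABARAP proteins of the autophagy pathway, and the study asked how its loss alters the intestinal transcriptome in this colitis. The labels name no promoter or cell type for the knockout, and it is not stated which arrays share an animal. The p-values therefore reflect the spread of these 7 arrays around the fitted models, which may be technical. Only KO DSS colon held 2 arrays, so this spread also holds differences in the KO effect between conditions that a model leaves out.

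Chemokines are small secreted proteins that guide leukocytes along gradients, and they are classed by the spacing of their first cysteines as C, CC, CXC or CX3C ligands. Their receptors are G protein-coupled and sit on leukocytes, so each ligand and receptor pair calls a particular set of cells. Inflammatory ligands are switched on by microbial products, interferons and cytokines and bring in neutrophils, monocytes and effector lymphocytes. Homeostatic ligands are made continuously and place lymphocytes in the mucosa and its follicles. In the intestine, Ccl25 and its receptor Ccr9 are best known for directing lymphocytes to the small bowel.

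The labels held for genotype and, by the ileum markers, for tissue, but not for sex. Atg4b itself lay at a log2 intensity of 5.39 to 5.45 on the 4 KO arrays, against 7.35 to 7.72 on the 3 WT arrays. Markers of ileum averaged 12.66 in KO ileum and 12.23 in WT ileum, against 4.87 to 5.11 on the 5 colon arrays. The 4 markers of colon averaged 11.54 in KO and 11.77 in WT control colon. They were lower after DSS, at 9.94 and 10.41 in KO and 10.95 in WT. Of the 4, only Aqp8 (-0.96 ± 0.16 log2) passed an adjusted p of 0.05 in limma for DSS. Hoxd13 (-1.98 ± 0.54), Hoxb13 (-1.15 ± 0.54) and Car1 (-0.43 ± 0.53) did not. Hoxd13 had 6.64 and 8.19 in KO and 9.12 in WT DSS colon, against 9.89 in KO and 10.31 in WT control colon. In ileum Hoxd13 had 6.29 in KO and 6.27 in WT. The reason for the lower colon markers was not tested. Xist, the RNA of the inactive X chromosome, was at 12.16 to 12.55 on the DSS arrays and 5.19 to 5.52 on the untreated arrays, while the Y-linked Eif2s3y was at 4.28 to 4.39 on the DSS arrays and 9.39 to 9.77 on the untreated arrays. These markers went against the labelled sex on the 3 WT arrays, and DSS and the sex that the markers show cannot be told apart. Array medians lay between 121.4 and 126.45 intensity units. Of the 51 members, 32 were never below an array's lower quartile of all genes, and 6 (Ccl12, Ccl24, Ccl26, Cxcl15, Ccr3 and Ccr8) were below it on all 7. The number of arrays limits the precision, since 5 of the 6 groups held 1 array.

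Colon after DSS held more RNA of many inflammatory chemokines than untreated colon. With genotype held in the model, 14 of the 51 members rose and 2 fell (16 of 51, or 31.4%), against 10.6% of all genes tested (7.2% higher and 3.43% lower, limma, Benjamini-Hochberg adjusted p under 0.05). The median log2 difference was 0.24 over the members and -0.013 over all genes. Ligands made up most of the calls, with 12 of 34 higher and 1 lower. Of the 17 receptors, 2 were higher and 1 was lower. All 3 ligands of CXCR3 rose, as did 3 of the 5 neutrophil-attracting CXC ligands and 5 of the 15 inflammatory CC ligands. None of the 4 homeostatic CC ligands passed the threshold in limma. At an unadjusted p under 0.05 there were 26 members, 2 of these 4 among them, against 26.3% of all genes. The other 35 members had log2 differences from -0.76 to 1.06. In whole tissue, fewer cells of a type and less RNA per cell cannot be told apart. The count depended on single arrays, and so did that over all genes: 4 members passed without KO control colon (0.918% of all genes), 5 without WT control colon (1.08% of all genes) and 10 without WT DSS colon (2.64% of all genes). A model with 1 mean per group called 8 members and 1.49% of all genes.

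**Figure D1:**
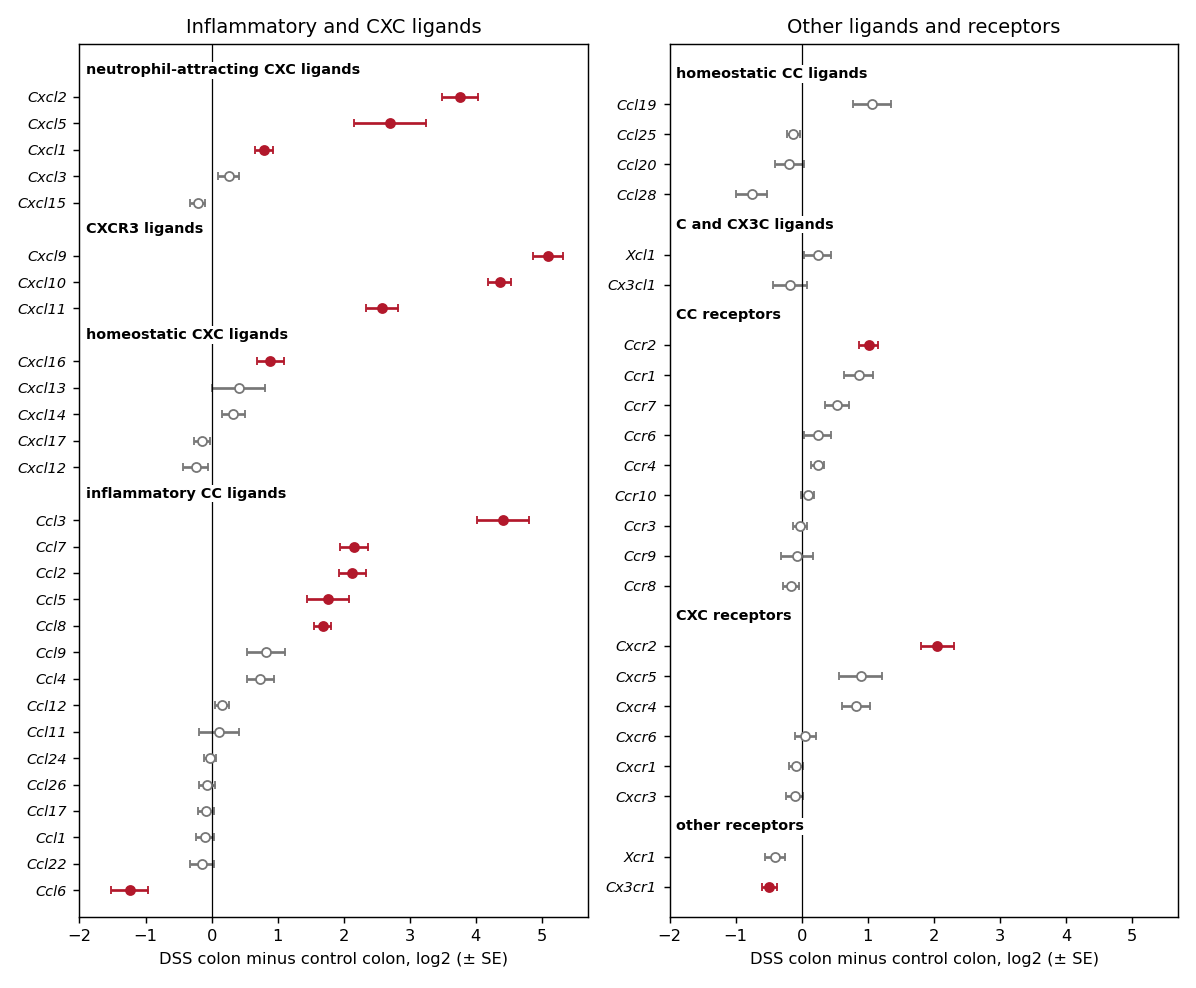
Log2 difference of DSS colon minus control colon for each of the 51 members, grouped by role, with the standard error of the fit as bars. Filled red points passed the adjusted threshold and open grey points did not; the CXCR3 ligands lie between 2.58 and 5.09, and receptors between -0.49 and 2.05.

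All 3 interferon-induced ligands of CXCR3, the receptor of activated T and NK cells, rose in DSS colon. Cxcl9 had a log2 intensity of 11.58 and 11.77 in KO DSS colon and 12.01 in WT DSS colon, against 7.00 in KO and 6.34 in WT control colon. Cxcl10 had 11.56 and 11.37 in KO and 11.61 in WT DSS colon, against 7.29 in KO and 6.96 in WT control colon. Cxcl11 had 9.55 and 9.14 in KO and 9.61 in WT DSS colon, against 7.01 in KO and 6.62 in WT control colon. For each of these ligands, every DSS array was above both control arrays by over 2 log2 units, and no groups overlapped. The log2 differences were 5.09 ± 0.23 for Cxcl9 (SE, limma adjusted p = 0.000279, 34.0-fold), 4.36 ± 0.17 for Cxcl10 (adjusted p = 0.00018, 20.6-fold) and 2.58 ± 0.24 for Cxcl11 (adjusted p = 0.00323, 5.99-fold). Cxcl9 and Cxcl10 passed without any 1 array, whereas Cxcl11 did not pass without KO control colon (2.71, adjusted p = 0.0565) or without WT control colon (2.48, adjusted p = 0.0565). The receptor gene Cxcr3 had 6.70 and 6.66 in KO and 6.56 in WT DSS colon, against 7.00 in KO and 6.40 in WT control colon. Its DSS values lay between the control values, and its difference was -0.11 ± 0.13 (adjusted p = 0.685). Beside these ligands, none of the 9 measured markers of T and NK cells passed the threshold for DSS. The marker list averaged 6.31 and 6.17 in KO and 6.38 in WT DSS colon, against 6.12 in KO and 6.15 in WT control colon.

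The neutrophil-attracting CXC ligands split within the group. These ligands act through CXCR2, the main chemokine receptor of neutrophils. Cxcl2 had 8.42 and 8.78 in KO and 9.44 in WT DSS colon, against 5.33 in KO and 5.0 in WT control colon. Cxcl5, made largely by epithelial cells, had 6.50 and 8.44 in KO and 8.35 in WT DSS colon, against 5.22 in KO and 5.0 in WT control colon. Cxcl1, the keratinocyte-derived chemokine, had 7.89 and 8.19 in KO and 7.83 in WT DSS colon, against 7.24 in KO and 7.11 in WT control colon. The DSS arrays were above the control arrays for all 3 genes, and the first KO DSS array stood low for Cxcl5. The log2 differences were 3.76 ± 0.27 for Cxcl2 (adjusted p = 0.00137, 13.6-fold), 2.70 ± 0.55 for Cxcl5 (adjusted p = 0.0309, 6.50-fold) and 0.79 ± 0.14 for Cxcl1 (adjusted p = 0.0217, 1.73-fold). Cxcl2 passed without any 1 array. Of the 7 fits without 1 array, Cxcl5 passed only in the one without the first KO DSS array. It gave 2.31 without the second KO DSS array (adjusted p = 0.0624), 2.32 without WT DSS colon (adjusted p = 0.143), 3.12 without KO control colon (adjusted p = 0.157), 2.36 without WT control colon (adjusted p = 0.195) and 2.72 without either ileum array (adjusted p = 0.0558). Cxcl1 did not pass without the second KO DSS array (0.69, adjusted p = 0.0589), WT DSS colon (0.88, adjusted p = 0.0741), KO control colon (0.83, adjusted p = 0.142) or WT control colon (0.75, adjusted p = 0.14).

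Cxcl3, a close relative of Cxcl1 and Cxcl2, had 5.56 and 5.90 in KO and 5.60 in WT DSS colon, against 5.62 in KO and 5.18 in WT control colon. Its DSS and control values overlapped, and its difference was 0.26 ± 0.16 (adjusted p = 0.376). Cxcl3 was below an array's lower quartile of all genes on 6 of the 7 arrays. Cxcl15, described in mouse as a lung chemokine, was below each array's lower quartile, with a difference of -0.21 ± 0.11 (adjusted p = 0.285). The receptor Cxcr2 had 6.93 and 7.49 in KO and 7.44 in WT DSS colon, against 5.16 in KO and 5.29 in WT control colon. All DSS values of Cxcr2 exceeded both control values. The log2 difference was 2.05 ± 0.25 (adjusted p = 0.00643, 4.15-fold), and it did not pass without KO control colon (1.91, adjusted p = 0.0956) or WT control colon (2.17, adjusted p = 0.0726). Cxcr1, the other receptor of this family, differed by -0.09 ± 0.11 (adjusted p = 0.689). Markers of neutrophils moved with these genes. All 8 listed markers rose, Cxcr2 itself among them, against 7.2% of all genes. The list averaged 7.29 and 7.70 in KO and 7.73 in WT DSS colon, against 5.64 in KO and 5.44 in WT control colon. The largest differences were 2.61 ± 0.28 for S100a9 and 2.28 ± 0.18 for S100a8, the calprotectin subunits, and 2.10 ± 0.25 for Retnlg. Their part in the differences of the ligands and of Cxcr2 was not tested.

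Promoter sequence of 4 CXC ligands is shown so that the letters upstream of their starts can be set beside their values. RefSeq promoter windows (GRCm38.p6, from 250 bases before to 50 after each gene's start) were at hand for 37 of the 51 members and for 8 of the 14 that rose. A pattern bound by NF-kB dimers (GGGA, any 2 bases, T, any base, CC) and the core bound by interferon regulatory factors (GAAA, any 2 bases, GAAA) were searched on both strands. Matches are printed in capitals, and each stretch reads 5′ to 3′ on the gene's strand. The stretches of Cxcl1, Cxcl2 and Cxcl3 run from 125 to 26 bases before the start, and that of Cxcl10 from 225 to 76 bases before it.
Cxcl1 (chr5:90891120-90891219, plus strand): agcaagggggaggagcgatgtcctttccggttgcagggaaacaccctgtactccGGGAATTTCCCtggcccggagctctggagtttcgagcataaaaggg
Cxcl2 (chr5:90903774-90903873, plus strand): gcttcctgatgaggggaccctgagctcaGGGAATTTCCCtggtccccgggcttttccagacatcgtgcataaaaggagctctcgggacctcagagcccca
Cxcl3 (chr5:90785976-90786075, plus strand): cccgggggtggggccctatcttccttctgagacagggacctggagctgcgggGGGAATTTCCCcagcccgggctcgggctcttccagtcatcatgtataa
Cxcl10 (chr5:92348965-92349114, minus strand): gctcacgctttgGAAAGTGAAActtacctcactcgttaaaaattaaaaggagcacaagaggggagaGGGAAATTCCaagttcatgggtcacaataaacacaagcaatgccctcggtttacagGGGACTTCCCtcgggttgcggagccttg
The NF-kB-like letters begin 71, 97 and 73 bases before the starts of Cxcl1, Cxcl2 and Cxcl3, where all 3 genes hold the same run, GGGAATTTCCC. Overlapping matches on both strands fall within that run. Cxcl10 holds this pattern at 159 and 103 bases before its start and the interferon-type core at 213. NF-kB-like letters were found in the windows of 7 members (Ccl1, Ccr3, Ccr6, Cxcl1, Cxcl2, Cxcl3 and Cxcl10), of which 3 rose, and in 4.01% of all 32851 windows. The interferon-type core was found for Ccl19, Cxcl10 and Cxcl14, of which Cxcl10 rose, and in 3.44% of all windows. The form TTCNNNGAA, bound by STAT dimers, was found for Ccl17, Ccr6 and Cxcl14, none of which rose, and in 8.3% of all windows. Among the risen members with a window, Cxcl9, Ccl3, Ccl8, Ccr2 and Cxcr2 held none of these patterns. A match describes the letters and not a bound site: Cxcl3 carries the same run as Cxcl1 and Cxcl2, which rose, and did not itself pass the threshold. The low signal of Cxcl3, below an array's lower quartile on 6 of the 7 arrays, limits this comparison.

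The CC ligands Ccl2, Ccl7 and Ccl8 rose, and so did Ccr2, the receptor of Ccl2 and Ccl7. Ccl2, the main ligand of CCR2, had 9.05 and 9.55 in KO and 8.80 in WT DSS colon, against 7.09 in KO and 6.85 in WT control colon. Ccl7, a further CCR2 ligand, had 9.08 and 9.67 in KO and 8.85 in WT DSS colon, against 6.95 in KO and 7.02 in WT control colon. Ccl8 had 7.23 and 7.53 in KO and 7.50 in WT DSS colon, against 5.79 in KO and 5.69 in WT control colon. The groups did not overlap for these 3 ligands, and for Ccl2 and Ccl7 the second KO DSS array was the highest of all 7 arrays. The log2 differences were 2.13 ± 0.20 for Ccl2 (adjusted p = 0.00323, 4.36-fold), 2.16 ± 0.21 for Ccl7 (adjusted p = 0.00369, 4.48-fold) and 1.68 ± 0.13 for Ccl8 (adjusted p = 0.00198, 3.21-fold). Ccr2, carried by inflammatory monocytes, had 6.42 and 6.81 in KO and 6.70 in WT DSS colon, against 5.60 in KO and 5.71 in WT control colon. Its log2 difference was 1.01 ± 0.14 (adjusted p = 0.01, 2.01-fold), again without overlap. Ccl8 passed without any 1 array. Ccl2 did not pass without KO control colon (2.12, adjusted p = 0.0609) or WT control colon (2.13, adjusted p = 0.0533), and Ccl7 did not pass without KO control colon (1.86, adjusted p = 0.0621). Ccr2 did not pass without KO control colon (0.98, adjusted p = 0.104), WT control colon (1.03, adjusted p = 0.0921) or WT DSS colon (1.00, adjusted p = 0.0587). Of 8 measured markers of monocytes and macrophages, 2 rose beside them, against 7.2% of all genes. These were Fcgr1 (0.91 ± 0.11) and Cd68 (0.77 ± 0.17). The other 6 did not pass, and they gave positive values for Csf1r (0.51), Lyz2 (0.27) and Adgre1 (0.18) and negative values for Mertk (-0.62), Mrc1 (-0.46) and Cd163 (-0.13). That list averaged 8.10 and 8.08 in KO and 7.86 in WT DSS colon, against 7.82 in KO and 7.75 in WT control colon, and its part in these differences was not tested. Ccl12, a mouse CCR2 ligand, was below the lower quartile on all arrays and differed by 0.16 ± 0.11.

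Among the remaining inflammatory CC ligands, Ccl3 and Ccl5 rose and Ccl6 fell. Ccl3, a macrophage inflammatory protein that binds CCR1, had 10.00 and 9.91 in KO and 11.05 in WT DSS colon, against 5.83 in KO and 6.08 in WT control colon. Ccl5, made by T and NK cells among others, had 9.15 and 9.46 in KO and 10.70 in WT DSS colon, against 8.05 in KO and 8.19 in WT control colon. For both ligands, every DSS array was above the control arrays and WT DSS colon was the highest of the 3 DSS arrays. The log2 differences were 4.41 ± 0.40 for Ccl3 (adjusted p = 0.00323, 21.2-fold) and 1.76 ± 0.32 for Ccl5 (adjusted p = 0.022, 3.38-fold). Ccl3 did not pass without KO control colon (4.40, adjusted p = 0.0619) or WT control colon (4.41, adjusted p = 0.0538). Ccl5 did not pass without KO control colon (2.14, adjusted p = 0.103), WT control colon (1.44, adjusted p = 0.157) or the second KO DSS array (1.81, adjusted p = 0.0594). Ccl4, encoded next to Ccl3 and closely related to it, had 7.17 and 6.54 in KO and 6.99 in WT DSS colon, against 5.98 in KO and 6.40 in WT control colon. The groups did not overlap, and its difference of 0.74 ± 0.21 did not pass (adjusted p = 0.078). Ccr1, the receptor of Ccl3 on myeloid cells, differed by 0.86 ± 0.22 (adjusted p = 0.0568). It passed without the first KO DSS array (1.04, adjusted p = 0.00549) and with a variance trend and robust fit (adjusted p = 0.0402).

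Ccl6, a CCR1 ligand described in mouse, had 11.05 and 10.11 in KO and 10.00 in WT DSS colon, against 11.57 in KO and 11.54 in WT control colon. Every DSS array was below both control arrays, with the first KO DSS array nearest to them. The log2 difference was -1.24 ± 0.28 (adjusted p = 0.0428, 2.36-fold lower). Of the 7 fits without 1 array, the call was kept only in the one without the first KO DSS array: the value was -1.03 without the second KO DSS array (adjusted p = 0.0846), -1.13 without WT DSS colon (adjusted p = 0.182), -1.55 without KO control colon (adjusted p = 0.148), -0.99 without WT control colon (adjusted p = 0.236) and -1.23 without either ileum array (adjusted p = 0.0734). Its neighbour and relative Ccl9 had 8.91 and 7.97 in KO and 7.71 in WT DSS colon, against 7.35 in KO and 7.27 in WT control colon. All DSS values of Ccl9 lay above the control values, and the difference of 0.82 ± 0.29 did not pass (adjusted p = 0.134), although it passed at 0.53 without the first KO DSS array (adjusted p = 0.0248). The eosinophil-attracting Ccl11, Ccl24 and Ccl26 and their receptor Ccr3 differed by 0.11 ± 0.30, -0.02 ± 0.09, -0.07 ± 0.12 and -0.03 ± 0.11. Ccl17 and Ccl22 and their receptor Ccr4 differed by -0.08 ± 0.12, -0.15 ± 0.18 and 0.24 ± 0.10. Ccl1 and its receptor Ccr8 differed by -0.10 ± 0.14 and -0.16 ± 0.12. None of these 9 genes passed the threshold.

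**Figure D2:**
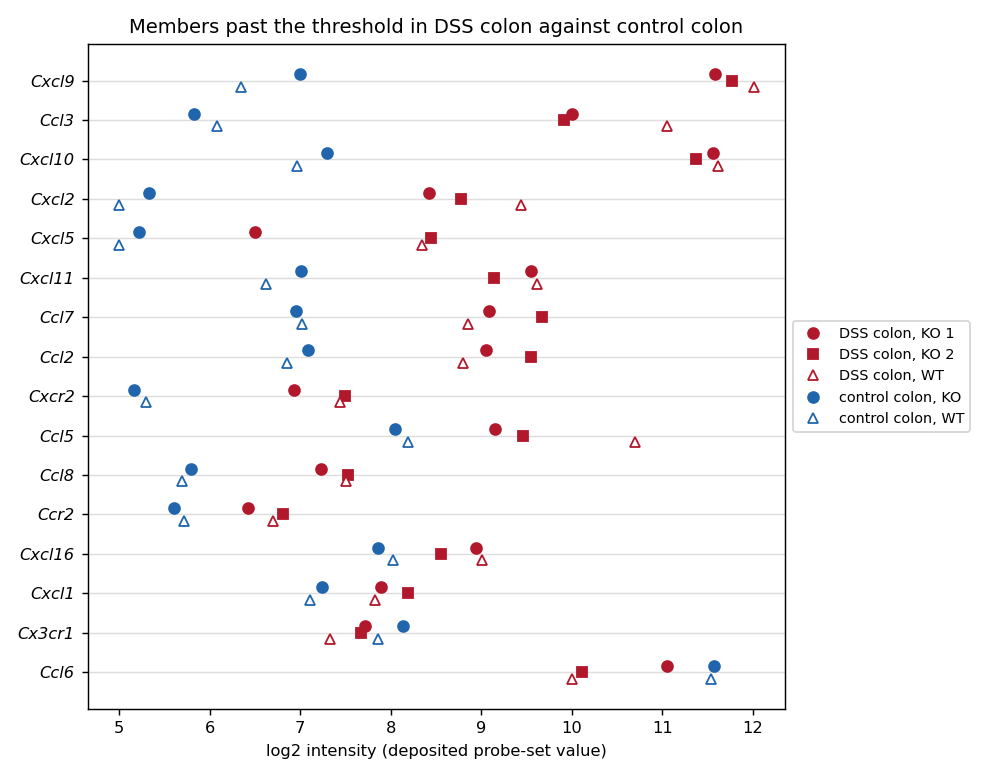
Log2 intensity of the 16 members past the threshold in DSS colon against control colon, with 1 point per array. The 14 genes that rose have all 3 DSS points to the right of both control points; Ccl6 and Cx3cr1 have them to the left, and Cxcl5 spans 6.50 to 8.44 among the DSS arrays.

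Many of these ligands are neighbours in the genome. In the RefSeq gene order of GRCm38.p6, 9 Cxcl members follow each other on chromosome 5 as Cxcl5, Cxcl3, Cxcl15, Cxcl1, Cxcl2, Cxcl9, Cxcl10, Cxcl11 and Cxcl13, with genes that are not members left out. Of these 9, 6 rose in DSS colon, against 7.2% of all genes. Cxcl3 and Cxcl15, which lie between Cxcl5 and Cxcl1, did not pass. On chromosome 11, 11 Ccl members run in the order Ccl2, Ccl7, Ccl11, Ccl12, Ccl8, Ccl1, Ccl5, Ccl9, Ccl6, Ccl3 and Ccl4. Of these 11, 5 rose and Ccl6 fell, against 7.2% higher and 3.43% lower among all genes. Ccl11 and Ccl12 separate Ccl2 and Ccl7 from Ccl8 along that chromosome, and neither passed. No genome build is given for the array, so the order alone was used.

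**Figure D3:**
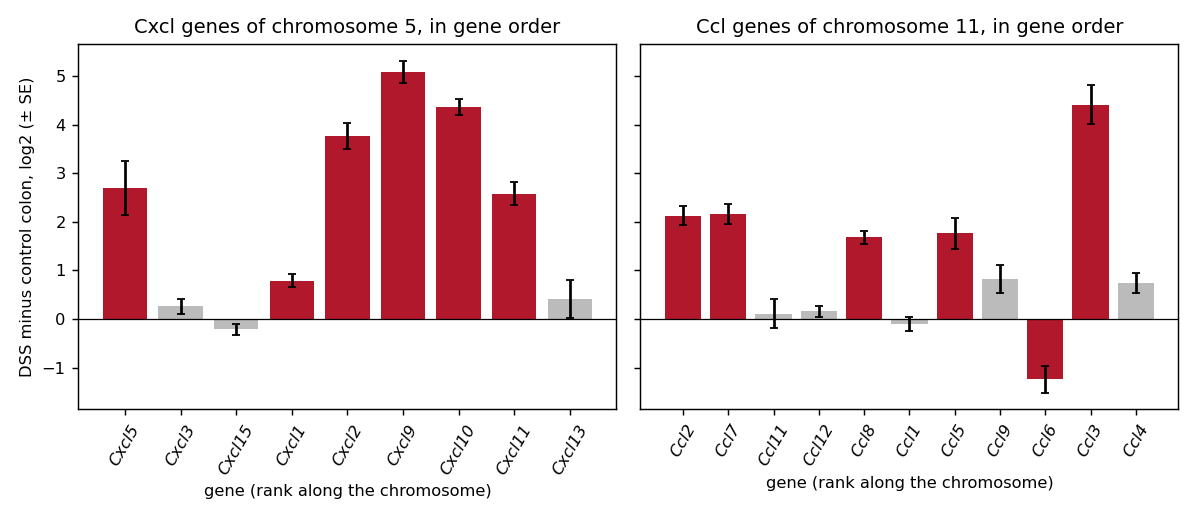
Log2 difference of DSS colon minus control colon, with SE, for the Cxcl members of chromosome 5 and the Ccl members of chromosome 11 in gene order. Red bars passed the threshold and grey bars did not; on chromosome 11 the bar of Ccl3 reaches 4.41 while that of its neighbour Ccl6 is at -1.24.

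Of the 5 homeostatic CXC ligands, 1 rose in DSS colon, namely Cxcl16, a membrane-bound ligand that also acts as a scavenger receptor. It had 8.94 and 8.55 in KO and 9.01 in WT DSS colon, against 7.86 in KO and 8.02 in WT control colon. The groups did not overlap, and the log2 difference was 0.89 ± 0.21 (adjusted p = 0.0474, 1.85-fold). It passed without either ileum array, and not without the first KO DSS array (0.84, adjusted p = 0.0502), the second (1.03, adjusted p = 0.0525), WT DSS colon (0.71, adjusted p = 0.212), KO control colon (0.76, adjusted p = 0.309) or WT control colon (1.00, adjusted p = 0.17). Its receptor Cxcr6 differed by 0.05 ± 0.16 (adjusted p = 0.896). Cxcl12, which retains leukocytes through CXCR4, differed by -0.24 ± 0.19 (adjusted p = 0.488). Cxcr4 itself had 8.48 and 7.83 in KO and 8.23 in WT DSS colon, against 7.52 in KO and 7.18 in WT control colon. Its values did not overlap, and the difference of 0.82 ± 0.21 did not pass (adjusted p = 0.0553). It passed under 5 alternatives: without the first KO DSS array (0.69, adjusted p = 0.0468), without the second (1.01, adjusted p = 0.0221), with array medians subtracted (adjusted p = 0.049), with dim genes left out (adjusted p = 0.0406) and with a variance trend and robust fit (adjusted p = 0.045). Cxcl14, an epithelial chemokine, and Cxcl17, a mucosal one, differed by 0.33 ± 0.17 and -0.15 ± 0.12, and neither passed.

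The ligands and receptors of lymphoid tissue gave no call in DSS colon. Ccl19, which draws dendritic cells and T cells to lymphoid tissue through CCR7, had 8.32 and 7.48 in KO and 8.74 in WT DSS colon, against 7.15 in KO and 7.23 in WT control colon. Its difference was 1.06 ± 0.29 (adjusted p = 0.0691), the highest of the 35 members that did not pass, and it was 1.35 with an adjusted p of 0.0124 without the second KO DSS array. With dim genes left out its adjusted p was 0.0483. Ccr7 differed by 0.53 ± 0.18 (adjusted p = 0.128), with 0.28 to 0.80 when 1 array was left out. Cxcl13, the B-cell attracting ligand of CXCR5, had 10.27 and 10.78 in KO and 10.39 in WT DSS colon, against 10.35 in KO and 9.49 in WT control colon. These values overlapped, and the difference was 0.41 ± 0.40 (adjusted p = 0.592). Cxcr5 had 6.36 and 6.59 in KO and 7.29 in WT DSS colon, against 6.21 in KO and 5.52 in WT control colon. Its difference was 0.89 ± 0.32 (adjusted p = 0.139), and it ran from 0.38 without WT DSS colon to 1.47 without KO control colon. Among 5 measured B and plasma cell markers, only the plasma cell gene Jchain passed, with -1.46 ± 0.16. The B-cell markers Ms4a1, Cd79a and Cd79b gave 0.79 ± 0.34, 0.49 ± 0.38 and 0.47 ± 0.23 without passing, Mzb1 gave -0.26 ± 0.16, and the list's median was 0.47.

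Ccl28, Ccl20 and Ccl25, ligands made by intestinal epithelium, gave no call in DSS colon. Ccl28, which recruits IgA plasma cells through CCR10, had 10.70 and 11.47 in KO and 10.98 in WT DSS colon, against 11.74 in KO and 11.90 in WT control colon. All its DSS values were below the control values, and the difference of -0.76 ± 0.23 did not pass (adjusted p = 0.0951); without the second KO DSS array it was -0.98 (adjusted p = 0.0196). Ccr10 differed by 0.09 ± 0.10. Ccl20, made by the epithelium over lymphoid follicles, differed by -0.19 ± 0.22, and its receptor Ccr6 by 0.24 ± 0.20. Markers of epithelium averaged 12.33 and 12.36 in KO and 12.33 in WT DSS colon, against 12.11 in KO and 12.18 in WT control colon. Ccl25 differed by -0.13 ± 0.10 and Ccr9 by -0.07 ± 0.24 in the colon.

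Cx3cr1, the receptor of resident intestinal macrophages, was the 1 receptor that fell. It had 7.72 and 7.67 in KO and 7.33 in WT DSS colon, against 8.13 in KO and 7.86 in WT control colon. The groups did not overlap, although the highest DSS value lay within 0.2 log2 units of the lower control value. The log2 difference was -0.49 ± 0.11 (adjusted p = 0.0419, 1.40-fold lower). It passed only without the first KO DSS array among the arrays left out, and gave -0.47 without the second (adjusted p = 0.141), -0.51 without WT DSS colon (adjusted p = 0.168), -0.60 without KO control colon (adjusted p = 0.133), -0.40 without WT control colon (adjusted p = 0.199) and -0.48 without either ileum array (adjusted p = 0.0564). Its ligand Cx3cl1 differed by -0.18 ± 0.26 (adjusted p = 0.742). Xcl1 and Xcr1, the ligand and receptor that link T and NK cells with cross-presenting dendritic cells, differed by 0.24 ± 0.20 and -0.40 ± 0.15, and neither passed.

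Genes that surround the chemokine system moved in the same comparison, in which 7.2% of all genes were higher and 3.43% lower. Of 23 measured cytokines, sensors and transcription factors known to induce chemokine genes, 18 rose and none fell, with a median log2 difference of 1.06 against -0.013 over all genes. Il1b differed by 4.73 ± 0.17, Il1a by 4.65 ± 0.51 and Tnf by 2.76 ± 0.23. Interferon gamma, the inducer of the CXCR3 ligands, rose by 1.84 ± 0.31 (adjusted p = 0.0183). Of 29 genes of chemokine receptor signalling, 7 rose and none fell, led by Rac2 (0.80 ± 0.17), Fgr (0.74 ± 0.16) and Dock2 (0.69 ± 0.14), which act in leukocyte movement. Of 12 chemokines, decoy receptors and related genes outside the symbol rule, 4 rose, led by the non-signalling receptor Ccrl2 (1.56 ± 0.30), Cd74 (1.02 ± 0.22) and Mif (0.95 ± 0.18). Of 11 enzymes that trim or present chemokines, 3 rose, namely Mmp8 (1.61 ± 0.36), Mmp9 (1.21 ± 0.13) and Adam10 (0.43 ± 0.11). Markers of other cell types in the wall moved as well. Of 6 smooth muscle markers, Des fell by 1.97 and Acta2 by 1.18 on the log2 scale, and the list averaged 11.62 and 10.52 in KO and 9.81 in WT DSS colon, against 12.22 in KO and 12.29 in WT control colon. Il5ra was the 1 of 4 eosinophil markers that rose (1.79 ± 0.20), Itgax the 1 of 5 dendritic cell markers (0.69 ± 0.13) and Krt20 the 1 of 5 epithelial markers (0.64 ± 0.11), and none of the 5 endothelial or 4 adipocyte markers passed. Whether the cell content of the samples contributes to the chemokine differences was not tested.

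In untreated mice, ileum was set against colon to ask which chemokine genes differ between intestinal regions. Here 6 of the 51 members were higher in ileum and none lower (11.8%), against 9.16% of all genes (5.94% higher and 3.22% lower, limma adjusted p under 0.05). At an unadjusted p under 0.05 there were 13 members, against 22.1% of all genes. The median log2 difference was 0.01 over the members and -0.023 over all genes. The members that rose were Ccl25, Cxcl9, Ccl5, Ccr9, Cxcl16 and Cxcr6, which hold 2 ligand and receptor pairs of lymphocyte homing and retention. The other 45 members had differences from -1.43 to 0.86. The count was 3 without KO control colon, where 3.31% of all genes passed. It was 15 when the 4 untreated arrays were fitted alone, with 11 members higher and 4 lower, where 13% of all genes passed. The fit of the 4 untreated arrays held no group of 2 arrays, so its spread came from no replicate. The ileum comparison shares the untreated colon arrays with the DSS comparison.

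Ccl25, the epithelial ligand of CCR9 in the small bowel, had 12.15 in KO and 11.91 in WT ileum, against 6.59 in KO and 6.33 in WT control colon. Its receptor Ccr9, which marks lymphocytes homing to the small intestine, had 8.24 in KO and 7.36 in WT ileum, against 5.60 in KO and 5.57 in WT control colon. Ileum was above colon in both genotypes for both genes, with no overlap. The log2 differences were 5.57 ± 0.10 for Ccl25 (adjusted p = 3.39e-06, 47.6-fold) and 2.22 ± 0.26 for Ccr9 (adjusted p = 0.00361, 4.65-fold). A second Ccl25 probe set gave 8.11 in KO and 7.85 in WT ileum, against 7.02 in KO and 7.52 in WT control colon, so the probe sets disagree in size; averaged over both, the difference was 3.14. Ccl25 passed without any 1 array, and Ccr9 did not pass without KO control colon (2.11, adjusted p = 0.0636).

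Cxcl9 had 9.70 in KO and 9.34 in WT ileum, against 7.00 in KO and 6.34 in WT control colon. Ccl5 had 10.81 in KO and 10.91 in WT ileum, against 8.05 in KO and 8.19 in WT control colon. Cxcl16 had 9.28 in KO and 8.75 in WT ileum, against 7.86 in KO and 8.02 in WT control colon. Ileum was above colon for each of these 3 ligands, which were also among the members that rose with DSS. The log2 differences were 2.85 ± 0.24 for Cxcl9 (adjusted p = 0.00119, 7.22-fold), 2.74 ± 0.34 for Ccl5 (adjusted p = 0.00486, 6.67-fold) and 1.08 ± 0.23 for Cxcl16 (adjusted p = 0.0359, 2.11-fold). Cxcr6, found on tissue lymphocytes, had 7.31 in KO and 6.66 in WT ileum, against 6.23 in KO and 6.12 in WT control colon. Its log2 difference was 0.81 ± 0.17 (adjusted p = 0.0365, 1.75-fold). The other interferon-induced ligands, Cxcl10 and Cxcl11, differed by 0.53 ± 0.18 (adjusted p = 0.142) and 0.84 ± 0.26 (adjusted p = 0.115); Cxcl11 passed without WT DSS colon (adjusted p = 0.0465). Cxcl9 passed without any 1 array. Ccl5 did not pass without KO ileum (2.36, adjusted p = 0.0521) or WT control colon (2.39, adjusted p = 0.063), nor did Cxcl16 without KO ileum (0.70, adjusted p = 0.211), KO control colon (0.96, adjusted p = 0.263) or WT control colon (1.19, adjusted p = 0.135). Cxcr6 did not pass without KO ileum (0.51, adjusted p = 0.189), KO control colon (0.71, adjusted p = 0.258), WT control colon (0.90, adjusted p = 0.128) or the second KO DSS array (0.81, adjusted p = 0.0634).

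**Figure D4:**
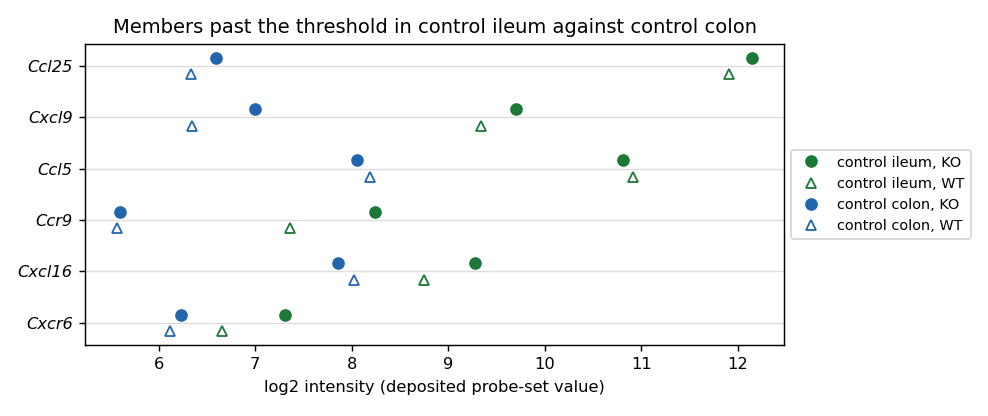
Log2 intensity of the 6 members past the threshold in control ileum against control colon, with 1 point per array. Ccl25 lies at 12.15 and 11.91 in KO and WT ileum and at 6.59 and 6.33 in KO and WT colon; for every gene shown, both ileum points are to the right of both colon points.

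Markers of lymphocytes and of other cell types differed between the same untreated samples, where 5.94% of all genes were higher in ileum and 3.22% lower. Of 9 measured T and NK cell markers, 5 were higher in ileum, led by Gzmb (2.85 ± 0.17), Cd3g (2.55 ± 0.35) and Gzma (2.18 ± 0.21). That list averaged 7.59 in KO and 7.30 in WT ileum, against 6.12 in KO and 6.15 in WT control colon. Its part in the higher values of Ccl5, Ccr9 and Cxcr6 was not tested. Elsewhere 3 of 4 adipocyte, 2 of 5 B and plasma cell and 2 of 5 dendritic cell markers were higher. So were 2 of 5 epithelial and 1 of 8 monocyte and macrophage markers. Jchain was higher by 1.09 ± 0.17 and Mzb1 by 1.08 ± 0.18. The B-cell markers Ms4a1, Cd79a and Cd79b gave -1.29 ± 0.37, -0.19 ± 0.41 and -0.42 ± 0.25 without passing. The part of these markers was not tested either. Of the chemokine-inducing genes, 6 of 23 were higher in ileum and Tlr4 was lower (-1.54 ± 0.22). Ifng, with 0.24 ± 0.33 (adjusted p = 0.732), did not pass in this comparison. Dpp4, an enzyme that clips several chemokines, was higher by 2.83 ± 0.24. Signalling genes gave 3 of 29 higher, namely Arrb1 (1.14 ± 0.16), Elmo1 (0.82 ± 0.13) and Plcb2 (0.76 ± 0.13). Of the 12 chemokine-related genes outside the symbol rule, Cd74 (1.51 ± 0.24) and Cmklr1 (0.65 ± 0.13) were higher.

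No member was lower in ileum past the threshold with all 7 arrays in the fit. With the 4 untreated arrays alone, the differences were -1.43 for Cxcl13, -0.76 for Ccr7, -0.72 for Ccl28 and -0.64 for Cxcr5. That fit held no group of 2 arrays, so its spread came from no replicate. Cxcl13 had 9.48 in KO and 7.49 in WT ileum, against 10.35 in KO and 9.49 in WT control colon. Both ileum values were below the colon values, and the difference was -1.43 ± 0.43 (adjusted p = 0.104). It passed without KO ileum (-2.21, adjusted p = 0.0323), the first KO DSS array (-1.43, adjusted p = 0.0428) or WT DSS colon (-1.43, adjusted p = 0.0426). Ccr7 differed by -0.76 ± 0.20 (adjusted p = 0.0715), Ccl28 by -0.72 ± 0.25 (adjusted p = 0.158) and Cxcr5 by -0.64 ± 0.35 (adjusted p = 0.35). Ccr7 passed without WT DSS colon (-0.76, adjusted p = 0.0342) and Ccl28 without the second KO DSS array (-0.72, adjusted p = 0.0278). Ccl20 and Ccr6 differed by -0.46 ± 0.24 and -0.45 ± 0.21, and neither passed; Ccr6 passed without WT control colon (-0.85, adjusted p = 0.0497). The neutrophil-attracting ligands lay between -0.35 and 0.03.

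Loss of Atg4b was compared with wild type over the 3 conditions. By limma, no member passed, against 0.00502% of all genes, a share made up of Atg4b alone. At an unadjusted p under 0.05 there were 6 members (Ccl11, Ccl25, Cx3cr1, Cxcl12, Cxcl13 and Cxcr3), against 3.61% of all genes. The members' log2 differences ran from -0.63 to 0.92, and all adjusted p-values were at least 0.989. Ccl11 had 8.73 and 8.20 in KO and 7.83 in WT DSS colon, 9.34 in KO and 7.61 in WT ileum, and 8.23 in KO and 7.75 in WT control colon. KO exceeded WT in each condition, by 1.73 log2 units in ileum and by 0.37 to 0.90 elsewhere, and the fitted difference was 0.92 ± 0.25. Cxcl13 was 1.99 higher in KO than in WT ileum and 0.86 higher in KO than in WT control colon, and in DSS colon the KO arrays were -0.13 and 0.38 from WT. Its fitted difference was 0.91 ± 0.33. Ccl5 was lower in KO in every pairing, by fitted value -0.63 ± 0.27, with its wide gaps in DSS colon alone.

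In DSS colon, 2 KO arrays were set against 1 WT array. By limma, no member passed, against 0% of all genes. An unadjusted p under 0.05 was found for 6 of the 51 members (Ccl3, Ccl5, Ccl19, Ccr7, Cxcl2 and Cxcr5), against 776 of 19938 genes (3.89%). Ccl5 had 9.15 and 9.46 in KO and 10.70 in WT, a difference of -1.39 ± 0.19 (adjusted p = 0.464, 2.63-fold lower). Ccl3 had 10.00 and 9.91 in KO and 11.05 in WT, a difference of -1.09 ± 0.33 (adjusted p = 1). For both ligands the KO arrays lay close together and below the single WT array. Cxcl5 had 6.50 and 8.44 in KO and 8.35 in WT, a difference of -0.88 ± 0.71 that rests on the first KO array. Cxcl2 differed by -0.84 ± 0.22, Ccl19 by -0.84 ± 0.33 and Cxcr5 by -0.81 ± 0.20, all with an adjusted p of 1. Without the second KO array, the differences were -1.55 for Ccl5, 1.05 for Ccl6, 1.20 for Ccl9, -1.02 for Cxcl2 and -1.84 for Cxcl5. That fit sets 1 KO array against 1 WT array and holds no group of 2 arrays, so its spread came from no replicate. Between the 2 KO arrays themselves, members differed by a median of 0.30 log2 units in size, and Cxcl5 (-1.94), Ccl9 (0.94) and Ccl6 (0.93) by over 0.9. Smooth muscle markers averaged 11.62 and 10.52 in the KO arrays and 9.81 in the WT array, and neutrophil markers 7.29 and 7.70 in KO and 7.73 in WT. Their part in these values was not tested.

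**Figure D5:**
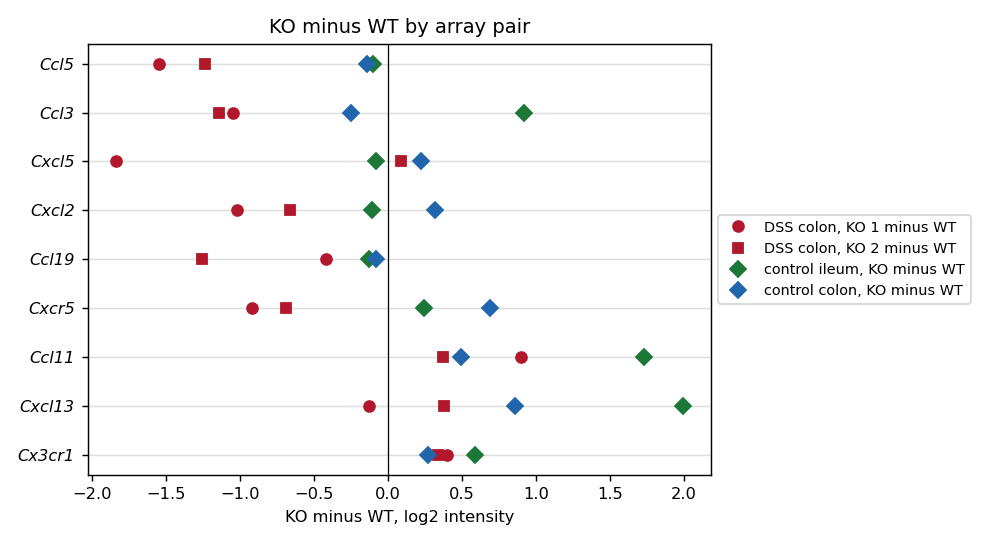
KO minus WT log2 intensity for 9 members, with 1 point for each pairing of a KO array with the WT array of the same condition. Ccl5 lies at -1.55 and -1.24 in DSS colon and at -0.10 and -0.14 in untreated ileum and colon; none of these genes passed the adjusted threshold.

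Whether the KO minus WT difference in DSS colon departs from that in untreated tissue was tested as an interaction. By limma, no member passed, against 0% of all genes. An unadjusted p under 0.05 was found for 10 of the 51 members, against 639 of 19938 genes (3.2%). The median interaction was -0.12 over the members and 0.03 over all genes. Ccl3 gave -1.43 ± 0.43, from KO minus WT of -1.05 and -1.14 in DSS colon, against 0.92 in ileum and -0.25 in control colon. Cxcl13 gave -1.30 ± 0.47. Ccl5 gave -1.27 ± 0.24, from -1.55 and -1.24 in DSS colon, against -0.10 in ileum and -0.14 in control colon. Cxcr5, the follicular B-cell receptor, also gave -1.27 ± 0.26, from -0.92 and -0.69 in DSS colon, against 0.24 in ileum and 0.69 in control colon. All adjusted p-values were 1. Beside them, the B-cell markers Ms4a1, Cd79a and Cd79b gave -1.33 ± 0.28, -1.40 ± 0.37 and -0.72 ± 0.31. The plasma cell gene Jchain gave 0.43 ± 0.25 and Mzb1 0.28 ± 0.28. None of these markers passed, and their part in the values of Cxcr5 and Cxcl13 was not tested. Seen as the rise over untreated colon of the same genotype, Ccl5 was 1.10 and 1.41 log2 units higher in KO DSS colon and 2.51 higher in WT DSS colon. The CXCR3 ligands gave interactions of -0.84 ± 0.23 for Cxcl9, -0.55 ± 0.21 for Cxcl10 and -0.81 ± 0.29 for Cxcl11, none of which passed. Without the second KO DSS array, the interactions were -1.43 for Ccl5, -1.92 for Cxcl5 and -1.38 for Cxcr5. That fit leaves 1 array for each genotype in DSS colon and holds no replicate.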

How the data were processed

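Biotin-labelled cRNA was made from intestinal total RNA with a kit of Affymetrix, per the labels' protocols, and each sample has 1 array. The authors deposited 1 linear intensity per probe set and array, from 10.4 to 22236.4. Their summary and normalization are not given in the sources used here. Array medians were close, so the intensities were taken as already normalized, and log2 was computed here from the deposited values, since the test had been planned for log2 values. An upstream step that equalised arrays would hide a change common to all genes. Of 35512 probe sets, the platform annotation names 1 symbol for 21789, several for 1621 and none here for 12102. Near-identical copies in the Ccl21 (4 probe sets) and Ccl27 (3 probe sets) families carry several symbols and were not used. All 51 member symbols match RefSeq.

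Models were fitted with limma 3.58.1 in R 4.3.3 to all 19938 genes, and p-values were adjusted over all of them by Benjamini-Hochberg, with calls at 0.05. The first model held condition (DSS colon, control ileum or control colon) and genotype, with 3 residual degrees of freedom, and the second added a genotype effect of its own for DSS colon, with 2. Values with ± are log2 differences and the standard error of the fit. Pairs of single arrays are given without a test. The fits were tested on simulated data. The members and lists were chosen with earlier results of these data known. By the rule for named genes, all members are accounted for, with values per array where a called difference reached 1 log2 unit or was among the 3 largest of a genotype comparison. Promoter sequences are from RefSeq (GRCm38.p6). Alternatives were quantile normalization, median centring, leaving out dim genes, testing or averaging all probe sets, a robust fit with a variance trend, subsets of arrays, 1 mean per group and leaving out each array. Figures were drawn with matplotlib 3.10.9.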

Additional observations from a re-analysis of the deposited data

How the results depend on the processing

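With 7 arrays, 5 of 6 groups rest on 1 array. The 107 results were recomputed under each alternative (1530 values): 1405 kept direction and side of the threshold, 74 lost it, 38 gained it and 13 changed sign. These values are not independent, since for DSS the fits of colon alone and without either ileum array gave the same values. The KO against WT results lay far from the threshold, with limma adjusted p-values of at least 0.989. The DSS count of 16 became 8 with 1 mean per group and ran from 4 to 18 when 1 array was left out. The ileum count of 6 became 15 with the 4 untreated arrays alone and ran from 3 to 9 when 1 array was left out. The count for KO against WT was 0 throughout; in DSS colon it ran from 0 to 5, and for the interaction from 0 to 3, when 1 array was left out. Without WT DSS colon, KO against WT in DSS colon and the interaction could not be estimated. Cxcl9, Cxcl10, Cxcl2 and Ccl8 passed for DSS, and Ccl25 and Cxcl9 for ileum, under every alternative. Sign changed for Cxcl13 with DSS (-0.11 without WT DSS colon, range -0.11 to 0.67), for Cxcl5 in KO against WT (0.08 without the first KO DSS array, 0.07 without WT DSS colon, range -0.57 to 0.08), in DSS colon (0.09 without the first KO DSS array, range -1.84 to 0.09) and in the interaction (0.02 without it, range -1.92 to 0.02), for the interaction of Ccl11 (0.15 with colon alone, with 1 mean per group or without either ileum array, range -1.10 to 0.15) and Ccl28 (-0.04 without the second KO DSS array, range -0.04 to 0.73), and for ileum against colon of Ccl11 (-0.10, range to 1.06) and Ccl3 (-0.01, range to 1.63) without KO ileum and Cx3cl1 (-0.01, range to 0.89) without KO control colon, each range taken over the arrays left out; the fits without an array rest on fewer arrays, and otherwise the cause was not tested. Among 148 member differences under 0.3 log2 units and not called, 88 changed sign under at least 1 alternative. Where a fit left an arm with 1 array, that array was assumed to vary like the others. Without 1 of the 2 KO DSS arrays, or with the 4 untreated arrays alone, no group held 2 arrays. The spread in those fits came from no replicate. No paired analysis was possible because it is not stated which arrays share an animal.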
